A study of Rattus norvegicus with 10 samples.

Results

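The proteasome is the protease complex that degrades proteins tagged with ubiquitin in the cytosol and nucleus. Its members here were all probe sets, the units of measurement of the array, annotated to exactly 1 gene symbol made of Psm, a letter from a to g and a number. This gave 53 of the 15899 probe sets on the array, for 44 genes. They were compared between 5 livers of rats given RG3487 and 5 livers of rats given the vehicle, deionized water. RG3487, known as a partial agonist of the neuronal nicotinic acetylcholine receptor, was given at 180 mg/kg by gavage in 5 ml/kg. All animals were rats of the strain CRL:WI (Han), aged 6 to 8 weeks and housed in groups of 5, and which animals shared a cage was not stated in the labels used. Sampling was at 24 h by the sample labels, while the design text of the series names 2 h. Each liver was measured on its own array, a lobe piece holds all liver cell types, and the sex of the animals was not stated in the labels used.

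The proteasome has a barrel-shaped core particle, built of rings of alpha subunits (Psma genes) around rings of beta subunits (Psmb genes), of which a few carry the catalytic sites. A regulatory particle caps the core. Its base holds a ring of ATPases (Psmc genes) that unfold substrates, and its lid and remaining base subunits (Psmd genes) bind ubiquitin chains and cut them off. Under interferon, 3 inducible beta subunits replace the constitutive catalytic ones and form the immunoproteasome, and activators (Psme genes) can cap the core instead of the regulatory particle. Transcription of the subunit genes is known to be raised together by the factor Nfe2l1 when the proteasome is inhibited, and Nfe2l2 is known to raise some of them under oxidative stress.

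Values are signal intensities on a linear scale as deposited, with the array means between 330.0 and 331.8. Correlations of log2 signals were 0.977 to 0.986 within groups and 0.960 to 0.976 between groups, and no array stood apart. Hepatocyte markers (Alb, Ttr, Apoa1, Serpina1, Tat and Cps1) were measured by 8 probe sets, none at 0. Their summed signal was 39070 to 47641 in RG3487 livers and 48473 to 51440 in vehicle livers. Of the 8, 0 were higher and 5 lower, against 7.16% lower of all probe sets tested and 16.6% lower of the 2379 brightest. Changes are differences of log2(signal + 16), RG3487 minus vehicle, with standard errors from limma and p-values adjusted over 11894 probe sets. A probe set passed at an adjusted p under 0.05. The median change of all probe sets tested was 0.08, with 64.5% of them positive, so changes of the members are also set against that shift.

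Proteasome genes rose with RG3487. Of 53 probe sets, 52 were bright enough to test, and 36 of these rose and 0 fell, in 34 of 44 genes. Over all probe sets tested 20.5% rose and 7.16% fell. The median change of the 52 was 0.25, a rise of 19.2%, and 0.17 above that of all probe sets tested. Single changes lay between -0.13 for a probe set of Psme4 and 0.61 for Psmb9, so that the members moved by small steps. In 25 of 52 the RG3487 livers all lay above the vehicle livers, against 13.9% of all probe sets tested, and in 0 of 52 they all lay below, against 4.48%. The members were bright, with 33 of 52 among the 2379 brightest probe sets tested. Of these 33, 25 rose, against 28.9% of the 2379. When each gene was counted once by its brightest probe set, 32 of 44 rose. The probe set left out as too dim belonged to Psmd9, which had another one.

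The size of that count depended on the scaling of the arrays. With each array centred on its median, 22 rose and 0 fell, against 11.4% of all probe sets tested that rose, and with quantile normalization 28 rose and 0 fell, against 12%. With arrays scaled to 18 hybridization control probe sets, whose targets are foreign RNAs spiked into the hybridization mix, 47 rose and 0 fell, against 56.2% of all probe sets tested. These controls averaged 9.71 ± 0.03 on the log2 scale in RG3487 livers and 9.90 ± 0.03 in vehicle livers (SD, n = 5 each). The median of the members was 0.17 above that of all probe sets tested with quantile normalization too, while centring and scaling to the controls shift all probe sets of an array alike and leave this difference as it was. The probe sets that passed with scaling to the hybridization controls but not as deposited belong to Psma6, Psmb8, Psmc6, Psmd2, Psmd3, Psmd11, Psmd14 (2 probe sets), Psme4, Psmd10 and Psmg3. A set of 22 probe sets rose under the deposited scaling and all 3 others.

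**Figure D1:**
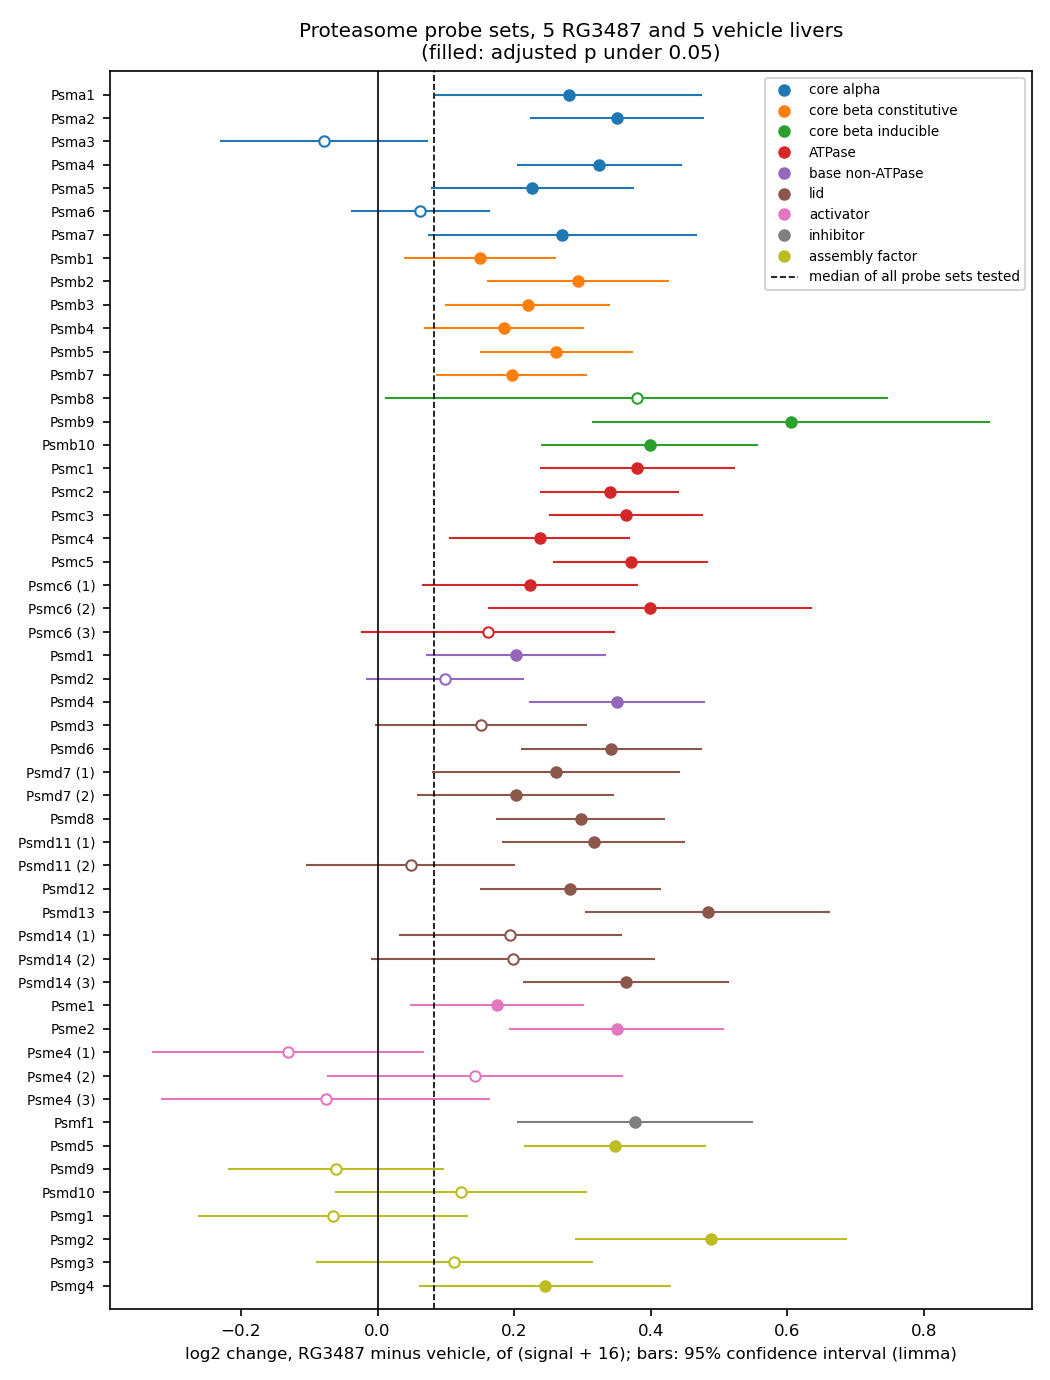
Change of each tested proteasome probe set (points, with 95% confidence intervals from limma) on the log2(signal + 16) scale, RG3487 minus vehicle, coloured by role. Numbers in brackets tell probe sets of 1 gene apart in the order of their identifiers, filled points passed, and the 36 filled points all lie right of 0 while the dashed line marks the median of all probe sets tested at 0.08.

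By animal, the median deviation of the members from the vehicle mean was 0.26, 0.25, 0.18, 0.28 and 0.31 in RG3487 rats 1 to 5 and -0.01, 0.02, 0.04, 0.01 and -0.07 in vehicle rats 1 to 5. The groups did not overlap. The same median over all probe sets tested lay between 0.06 and 0.10 in RG3487 livers and between -0.04 and 0.03 in vehicle livers. RG3487 rat 3 had the lowest signal of its group in 24 of 52 probe sets, and vehicle rat 5 in 27 of 52. These were also the arrays with the lowest median over all probe sets in their groups.

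**Figure D2:**
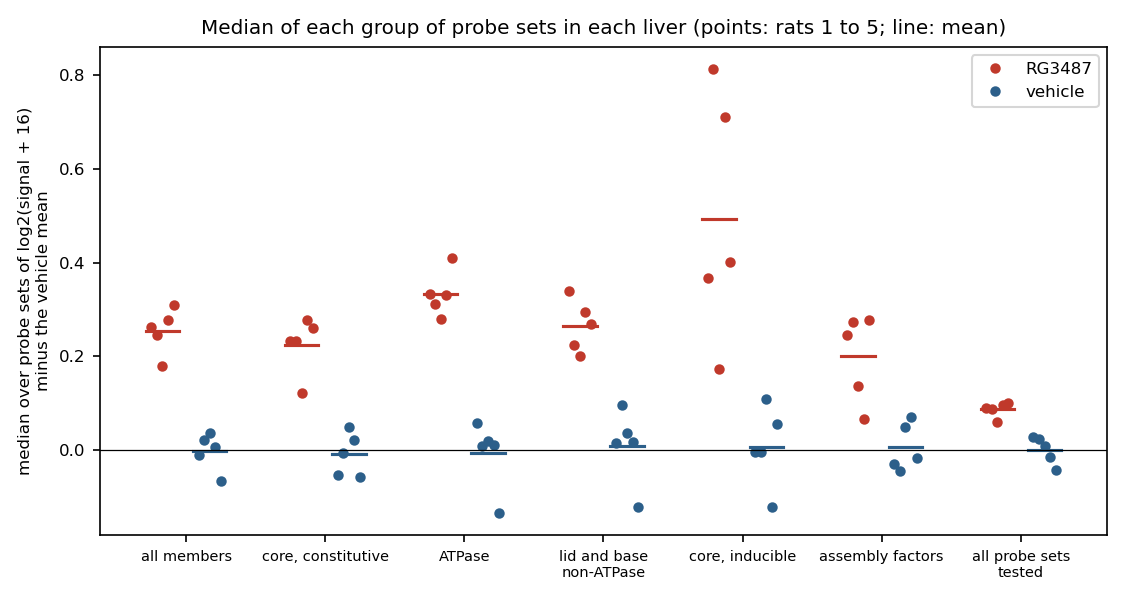
Median over the probe sets of each role of log2(signal + 16) minus the vehicle mean, in each liver (points, rats 1 to 5 from left to right in each cluster) with the group mean (line). For all members the RG3487 livers lie between 0.18 and 0.31 and the vehicle livers between -0.07 and 0.04, and the inducible core subunits spread most within the RG3487 group, between 0.17 and 0.81.

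In the alpha rings of the core, which gate the entry of substrates, 5 of 7 probe sets rose and 0 fell. The shares over all probe sets tested were 20.5% and 7.16%, and the median change of the 7 was 0.27. Psma2 had signals of 1359, 1296, 1231, 1270 and 1486 in the RG3487 livers, against 999, 1029, 1094, 1040 and 1022 in the vehicle livers. All RG3487 values lay above all vehicle values, and the change was 0.35 ± 0.06 (SE, adjusted p = 0.00138). Psma4 had 965, 973, 890, 974 and 992 in the RG3487 livers, against 719, 799, 812, 755 and 729 in the vehicle livers (0.32 ± 0.06, adjusted p = 0.0016), again without overlap. Psma1 (0.28 ± 0.09), Psma7 (0.27 ± 0.09) and Psma5 (0.23 ± 0.07) rose with overlapping groups. Psma6 averaged 2586 ± 136 in RG3487 livers and 2473 ± 49 in vehicle livers (SD, n = 5 each) and did not pass (0.06 ± 0.05, adjusted p = 0.338). Psma3 averaged 249.8 ± 19.4 in RG3487 livers and 264.6 ± 17 in vehicle livers (-0.08 ± 0.07, adjusted p = 0.426). Another probe set reads Psma3 together with the related Psma3l and was left out, so Psma3 rests on 1 probe set. The count of 5 fell to 2 without RG3487 rat 1, 4 or 5 or vehicle rat 1 or 5, and to 3 without vehicle rat 4. With arrays centred on their median it was 2, Psma2 and Psma4.

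All 6 probe sets of constitutive beta subunits rose, with a median change of 0.21, against 20.5% of all probe sets tested that rose. Psmb5, which carries the chymotrypsin-like site and is the main target of proteasome inhibitor drugs, had signals of 1192, 1233, 1201, 1275 and 1223 in the RG3487 livers and 942, 1010, 1090, 1032 and 1025 in the vehicle livers. The groups did not overlap (0.26 ± 0.05, adjusted p = 0.00321). Psmb2 had 1564, 1667, 1583, 1545 and 1719 in the RG3487 livers and 1279, 1368, 1329, 1443 and 1171 in the vehicle livers, also without overlap (0.29 ± 0.06, adjusted p = 0.00472). Psmb7, which carries the trypsin-like site, changed by 0.20 ± 0.05, Psmb3 by 0.22 ± 0.06, Psmb4 by 0.19 ± 0.05 and Psmb1 by 0.15 ± 0.05. Psmb6, which carries the caspase-like site, shared its probe set with Psmb6l1 and was not analysed here. With arrays centred on their median, 2 of the 6 rose, Psmb2 and Psmb5. When 1 array was left out, 4 to 6 of the 6 rose. The call of Psmb1 (adjusted p = 0.0454) held in 2 of those 10 fits and that of Psmb4 (adjusted p = 0.0235) in 6.

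The upstream sequences of Psmb5 and Psmb2 are shown because these genes rose under all scalings and hold a match to TGACNNNGC, the core of the antioxidant response element that Nfe2l1 and Nfe2l2 bind. They come from RefSeq (build GRCr8), cover 250 bases before the start site, and are in lower case with the match in capitals.
Psmb5, chr15:32047380-32047629, minus strand: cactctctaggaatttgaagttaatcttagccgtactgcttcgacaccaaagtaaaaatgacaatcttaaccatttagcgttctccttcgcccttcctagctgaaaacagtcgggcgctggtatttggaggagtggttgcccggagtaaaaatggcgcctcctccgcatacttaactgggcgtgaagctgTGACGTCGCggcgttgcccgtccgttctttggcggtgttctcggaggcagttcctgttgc
Psmb2, chr5:144254808-144255057, plus strand: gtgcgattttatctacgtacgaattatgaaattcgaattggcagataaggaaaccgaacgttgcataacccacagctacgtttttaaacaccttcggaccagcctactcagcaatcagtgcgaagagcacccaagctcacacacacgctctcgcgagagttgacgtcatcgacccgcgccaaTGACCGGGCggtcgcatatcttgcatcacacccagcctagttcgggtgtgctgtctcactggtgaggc
The match begins 60 bases before the start site of Psmb5 and 68 before that of Psmb2. Sequences were found for 40 of the 44 genes, and 6 of the 40 (15%) hold the motif on either strand, against 10.1% of 33469 promoters. Besides the pair above these were Psmd1, which rose, and Psma3, Psmd9 and Psme4, of which no probe set passed. So 3 of the 6 genes with the motif rose, against 30 of all 40 genes with a sequence. Whether the motif goes with the rise was not tested. The CCAAT box was found in 19 of the 40 (47.5%), against 34% of all promoters. A match to these letters is not a measured binding site.

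Of the inducible catalytic subunits 2 of 3 rose and 0 fell, against 20.5% and 7.16% of all probe sets tested. The largest change of all members was that of Psmb9. Psmb9 had signals of 262, 367, 227, 384 and 349 in the RG3487 livers and 209, 176, 226, 182 and 208 in the vehicle livers. The groups stayed apart by 1 unit of signal, between RG3487 rat 3 and vehicle rat 3 (0.61 ± 0.13, adjusted p = 0.0064). Psmb10 had 200, 225, 175, 189 and 197 in the RG3487 livers and 140, 147, 158, 143 and 139 in the vehicle livers, without overlap (0.40 ± 0.07, adjusted p = 0.00224). Psmb8 had 345, 517, 254, 481 and 356 in the RG3487 livers and 287, 287, 286, 230 and 362 in the vehicle livers. It spread widely among RG3487 rats and missed the threshold (0.38 ± 0.17, adjusted p = 0.113). It passed without RG3487 rat 3 (0.52, adjusted p = 0.0194) and with scaling to the hybridization controls (0.57, adjusted p = 0.0132).

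Each inducible subunit was also set against the constitutive one it replaces, as the difference of their log2 signals in each liver, which does not depend on a common scaling of the array. Psmb10 over Psmb7 was -2.28 ± 0.07 in RG3487 livers and -2.49 ± 0.06 in vehicle livers (SD, n = 5 each). The difference of 0.20 was larger than the spread, with 5 of 5 RG3487 livers above all vehicle livers (exact two-sided permutation p = 0.00794, the smallest that groups of 5 can give; adjusted p = 0.0159 over 2 pairs). With a pseudocount of 1 the difference was 0.23 and with 64 it was 0.13, each with the same p. With quantile normalization it was 0.14 (exact permutation p = 0.0159). Psmb8 over Psmb5 was -1.65 ± 0.37 in RG3487 livers and -1.77 ± 0.23 in vehicle livers, a difference of 0.12 that lay within the spread between animals (exact permutation p = 0.524). It ranged from 0.01 without RG3487 rat 2 to 0.25 without RG3487 rat 3. The third pair, Psmb9 with Psmb6, could not be formed because the Psmb6 probe set also reads Psmb6l1.

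**Figure D3:**
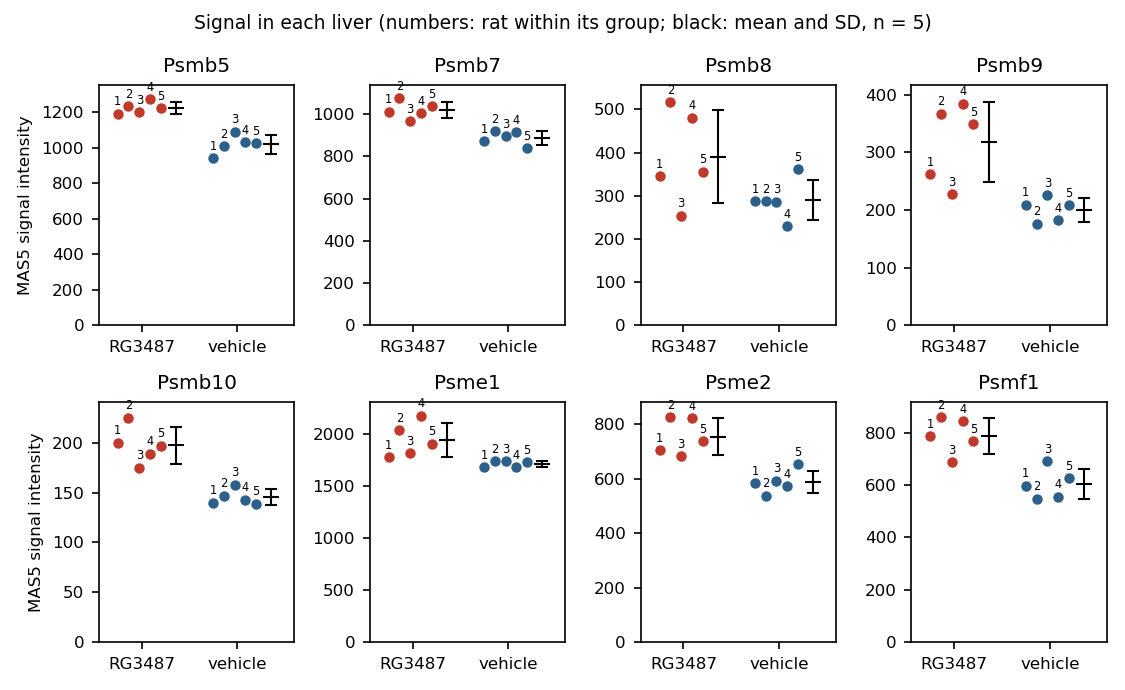
Signal intensity of constitutive (Psmb5, Psmb7) and inducible (Psmb8, Psmb9, Psmb10) catalytic subunits, of the activators Psme1 and Psme2 and of the inhibitor Psmf1 in each liver, with the number of the rat in its group and the mean and SD in black (n = 5 each). RG3487 rat 3 is the lowest of its group for all but Psmb5 and Psme1, and RG3487 rats 2 and 4 are the highest pair of their group for all but Psmb7 and Psmb10.

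All 6 ATPases of the regulatory particle rose in at least 1 probe set. Of their 8 probe sets 7 rose and 0 fell, against 20.5% and 7.16% of all probe sets tested. The median change of the 8 was 0.35. Psmc2 had signals of 1952, 1901, 1885, 2032 and 2090 in the RG3487 livers and 1570, 1612, 1521, 1534 and 1532 in the vehicle livers. This gap between the groups came with the smallest p of all members (0.34 ± 0.05, adjusted p = 0.000468). Psmc5 had 620, 609, 609, 634 and 656 in the RG3487 livers and 488, 474, 493, 451 and 496 in the vehicle livers, without overlap (0.37 ± 0.05, adjusted p = 0.000526). Psmc1 changed by 0.38 ± 0.07, Psmc3 by 0.36 ± 0.05 and Psmc4 by 0.24 ± 0.06, each without overlap. Psmc6 had 3 probe sets that differed in call. In 1382385_at the signals were 125, 147, 118, 107 and 155 in the RG3487 livers and 112, 99, 85, 99 and 79 in the vehicle livers (0.40 ± 0.11, adjusted p = 0.0179). In 1379850_at they were 550, 522, 566, 498 and 626 in the RG3487 livers and 524, 458, 463, 475 and 432 in the vehicle livers (0.22 ± 0.07, adjusted p = 0.0386). Both rose with overlapping groups. The third, 1384323_at, had 941, 821, 1121, 955 and 925 in the RG3487 livers and 898, 855, 917, 850 and 722 in the vehicle livers and did not pass (0.16 ± 0.09, adjusted p = 0.177). The ATPases kept 6 or 7 higher probe sets when any 1 array was left out, and 5 rose with arrays centred on their median.

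Among the base subunits that are no ATPases, Psmd4 and Psmd1 rose and Psmd2 did not pass. This was 2 of 3 probe sets higher and 0 lower, against 20.5% and 7.16% of all probe sets tested. Psmd4, a receptor for ubiquitin chains, had signals of 496, 505, 484, 479 and 504 in the RG3487 livers and 397, 410, 399, 366 and 349 in the vehicle livers (0.35 ± 0.06, adjusted p = 0.00148). Psmd1, a scaffold of the base, had 410, 376, 356, 386 and 363 in the RG3487 livers and 311, 349, 336, 317 and 319 in the vehicle livers (0.20 ± 0.06, adjusted p = 0.0269). Neither overlapped between groups. Psmd2, the other large scaffold, averaged 787.6 ± 29.7 in RG3487 livers and 734.8 ± 33.2 in vehicle livers (0.10 ± 0.05, adjusted p = 0.187). The call of Psmd1 was lost without RG3487 rat 1, 2 or 4 or vehicle rat 1, 4 or 5. It was also lost with arrays centred on their median or quantile normalized and with the replicate block. Each of these settings left 1 of the 3 probe sets higher.

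In the lid 8 of 12 probe sets rose and 0 fell, against 20.5% and 7.16% of all probe sets tested. The median change of the 12 was 0.27, and 7 of 8 genes had a probe set that rose. Psmd13 had signals of 363, 365, 308, 344 and 381 in the RG3487 livers and 246, 266, 261, 261 and 205 in the vehicle livers. All RG3487 livers were higher, and the change was the largest of the regulatory particle (0.48 ± 0.08, adjusted p = 0.00158). Psmd6 had 805, 833, 744, 832 and 822 in the RG3487 livers and 640, 678, 645, 642 and 565 in the vehicle livers (0.34 ± 0.06, adjusted p = 0.00191), also without overlap. Psmd8 (0.30 ± 0.06) and Psmd12 (0.28 ± 0.06) rose without overlap, and both probe sets of Psmd7 rose with overlap (0.26 ± 0.08 and 0.20 ± 0.07). Psmd3 averaged 255.4 ± 18.8 in RG3487 livers and 228.4 ± 16.5 in vehicle livers and did not pass (0.15 ± 0.07, adjusted p = 0.133).

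Probe sets disagreed for 2 lid genes. Psmd11, whose level is known to set proteasome assembly in human stem cells, rose in 1374712_at, with 1357, 1309, 1209, 1272 and 1160 in the RG3487 livers and 936, 1076, 1065, 953 and 1019 in the vehicle livers (0.32 ± 0.06, adjusted p = 0.00309). Its other probe set, 1376069_at, had 995, 998, 955, 1160 and 1056 in the RG3487 livers and 1049, 1073, 960, 1032 and 879 in the vehicle livers, with overlapping groups (0.05 ± 0.07, adjusted p = 0.642). Psmd14, the deubiquitinase that removes ubiquitin chains from substrates, rose in 1394082_at, with 421, 383, 371, 432 and 406 in the RG3487 livers and 321, 335, 306, 313 and 273 in the vehicle livers (0.36 ± 0.07, adjusted p = 0.00274). The other Psmd14 probe sets had positive changes of 0.19 ± 0.08 (1383429_at, adjusted p = 0.072) and 0.20 ± 0.10 (1386073_at, adjusted p = 0.141). The first of them passed without vehicle rat 2 (0.24, adjusted p = 0.0367), and both passed with scaling to the hybridization controls (0.39, adjusted p = 0.00142, and 0.39, adjusted p = 0.00603). Which transcripts the probe sets of 1 gene read was not analysed here.

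Of the activators, Psme1 and Psme2, whose products together form a ring and are known to be raised by interferon gamma, rose and Psme4 did not pass. This was 2 of 5 probe sets higher and 0 lower, against 20.5% and 7.16% of all probe sets tested. The median change of the 5 was 0.14, against 0.08 for all probe sets tested. Psme2 had signals of 703, 825, 683, 822 and 737 in the RG3487 livers and 582, 538, 592, 572 and 653 in the vehicle livers, without overlap (0.35 ± 0.07, adjusted p = 0.00437). Psme1 had 1776, 2033, 1813, 2173 and 1907 in the RG3487 livers and 1681, 1741, 1738, 1678 and 1727 in the vehicle livers. Its groups did not overlap, but its call was near the threshold (0.17 ± 0.06, adjusted p = 0.0431). It was lost with arrays centred on their median or quantile normalized, with no filter, without the trend, with the replicate block, and without RG3487 rat 2, 4 or 5 or any 1 of the 5 vehicle rats, which left 1 of the 5 activator probe sets higher. Psme3 shares all its probe sets with Aoc3 and G6pc1 in the annotation and was not analysed here.

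Psme4, an activator known for the breakdown of acetylated histones, had 3 probe sets, and none passed. In 1368817_at, with the most negative change of all members, the signals were 549, 599, 567, 592 and 609 in the RG3487 livers and 783, 717, 591, 594 and 544 in the vehicle livers. Vehicle rats 1 and 2 lay above the other animals, and the groups overlapped (-0.13 ± 0.09, adjusted p = 0.304). The others had 129, 158, 159, 166 and 179 in the RG3487 livers and 145, 169, 147, 119 and 130 in the vehicle livers (1368818_at, 0.14 ± 0.10, adjusted p = 0.308), and 520, 422, 394, 518 and 564 in the RG3487 livers and 498, 601, 462, 436 and 550 in the vehicle livers (1387345_at, -0.08 ± 0.11, adjusted p = 0.641). Psmf1, which inhibits the core in vitro, had 786, 858, 686, 843 and 768 in the RG3487 livers and 597, 548, 691, 555 and 627 in the vehicle livers. It rose (0.38 ± 0.08, adjusted p = 0.00491), with overlap between RG3487 rat 3 and vehicle rat 3.

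Psmb10 and Psme2 are shown next because they are interferon-inducible members that rose under all scalings and hold the core of the interferon-stimulated response element, GAAA, 2 bases of any kind and GAAA again, which stands in capitals.
Psmb10, chr19:50743293-50743542, minus strand: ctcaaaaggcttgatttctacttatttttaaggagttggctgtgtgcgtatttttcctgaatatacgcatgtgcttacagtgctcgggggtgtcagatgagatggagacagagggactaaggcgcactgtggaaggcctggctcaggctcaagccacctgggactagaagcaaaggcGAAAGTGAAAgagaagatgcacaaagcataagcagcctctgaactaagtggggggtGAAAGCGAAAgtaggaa
Psme2, chr15:33052752-33053001, minus strand: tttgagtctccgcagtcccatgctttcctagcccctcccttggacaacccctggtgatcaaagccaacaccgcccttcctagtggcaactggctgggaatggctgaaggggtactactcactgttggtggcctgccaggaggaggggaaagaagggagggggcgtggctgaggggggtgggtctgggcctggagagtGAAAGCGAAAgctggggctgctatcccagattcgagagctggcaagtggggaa
The matches begin 73 and 17 bases before the start site of Psmb10 and 53 bases before that of Psme2. This motif was found on either strand in 5 of 40 genes (12.5%), which besides these were Psma4, Psmb3 and Psmd7, against 3.41% of all promoters. The letters TTCNNNGAA, those of the interferon gamma activated site, were found in Psmb8, Psmc6, Psmd3 and Psmd7, 4 of 40 (10%), against 7.67% of all promoters. Neither motif was found in the 250 bases before Psmb9.

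Genes of the interferon response and antigen presentation were measured by 15 tested probe sets, of which 1 rose, Tap2, and 1 fell, B2m, against 20.5% and 7.16% of all probe sets tested. Single changes lay between -0.28 for Irf1 and 0.58 for Mx2, with a median of 0.04, against 0.08 for all probe sets tested. The summed signal of all 18 probe sets of these genes, with those too dim to test, was 13102 to 15637 in RG3487 livers. It was 15117 to 16621 in vehicle livers, and B2m gave the most to it. The interferon-induced gene Mx2 (1387283_at) had 242, 105, 32, 158 and 63 in the RG3487 livers and 61, 39, 62, 61 and 92 in the vehicle livers (0.58 ± 0.37, adjusted p = 0.257). It was highest in RG3487 rats 1 and 4, whereas Psmb8 was highest in rats 2 and 4, and both were lowest in rat 3 of that group. That rat also had the lowest median over all probe sets in its group. The other Mx2 probe set, 1369202_at, was too dim to test. It had 182, 5, 4, 199 and 0 in the RG3487 livers and 51, 8, 52, 63 and 57 in the vehicle livers. Of 6 macrophage probe sets 0 rose and 2 fell, Cd163 and Cd14, against 7.16% of all probe sets tested that fell, with summed signals of 1970 to 2648 in RG3487 livers and 2774 to 3543 in vehicle livers. The leukocyte genes Ptprc, Cd53 and Coro1a had summed signals of 231 to 412 in RG3487 livers and 300 to 329 in vehicle livers, with no call in 3 probe sets tested. Of 6 listed T cell genes only Cd4 had a probe set of its own (26 to 44 in RG3487 livers and 39 to 57 in vehicle livers), of 4 listed natural killer cell genes only Prf1 (9 to 31 in RG3487 livers and 23 to 32 in vehicle livers), and none of 4 listed B cell genes had one. No probe set of these lists was at 0 in all livers. In tissue RNA, fewer cells of a type and less RNA per cell cannot be told apart, and the part of other cell types in the change of the inducible subunits was not tested.

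Among the factors that assemble the proteasome, 3 of 7 probe sets rose and 0 fell, against 20.5% and 7.16% of all probe sets tested. Their median change was 0.12, against 0.08 for all probe sets tested, and 2 of the 7 rose with arrays centred on their median. Psmg2 had signals of 316, 270, 259, 280 and 333 in the RG3487 livers and 209, 192, 224, 222 and 170 in the vehicle livers, without overlap (0.49 ± 0.09, adjusted p = 0.00252). Psmg1, with which it forms the chaperone pair of the alpha ring, averaged 498.0 ± 46.5 in RG3487 livers and 522.8 ± 61.5 in vehicle livers and did not pass (-0.07 ± 0.09, adjusted p = 0.624). In the other pair of core chaperones Psmg4 rose (0.25 ± 0.08, adjusted p = 0.048) and Psmg3 did not pass (0.11 ± 0.09, adjusted p = 0.392). Whether the members of a pair differ in their change was not tested. Psmd5, a chaperone of the base, had 427, 429, 463, 470 and 476 in the RG3487 livers and 381, 337, 365, 332 and 348 in the vehicle livers (0.35 ± 0.06, adjusted p = 0.00185), without overlap. Psmd10 (0.12 ± 0.08) and Psmd9 (-0.06 ± 0.07), which also assist the assembly of the base, did not pass.

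**Figure D4:**
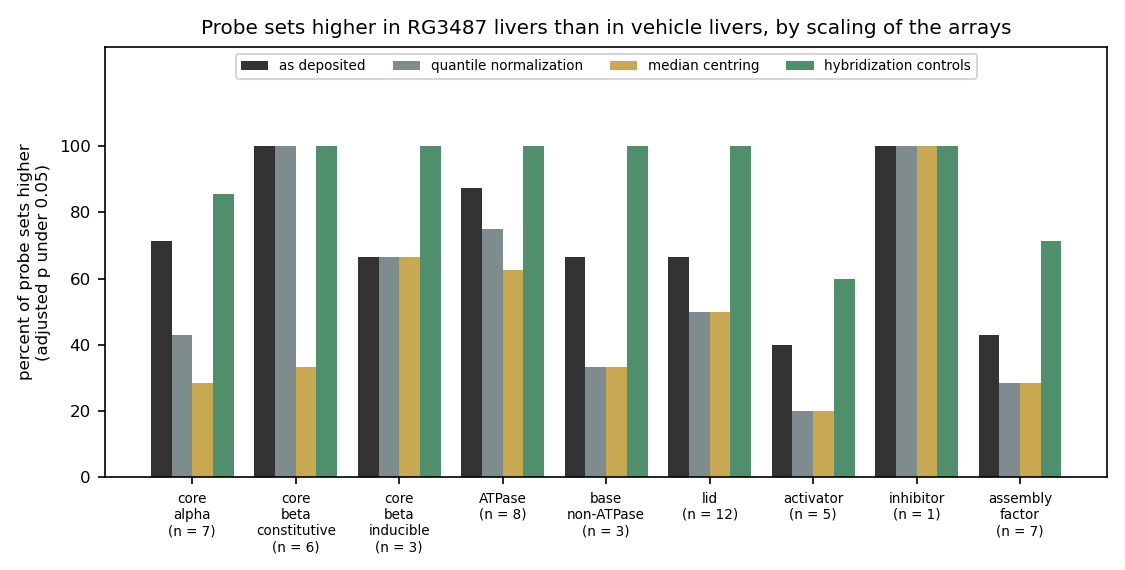
Percent of the tested probe sets of each role (n below each name) that were higher in RG3487 than in vehicle livers at an adjusted p under 0.05, for 4 ways of scaling the arrays (bars). None was lower under any of the 4, and the count over all roles was 36 as deposited, 28 with quantile normalization, 22 with median centring and 47 with scaling to the hybridization controls.

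Genes that work with the proteasome were read from a list, chosen with earlier results of these data known. Of its symbols 35 were found in RefSeq, and 30 had a probe set of their own. Of 43 probe sets tested 14 rose and 0 fell, in 12 genes, against 20.5% and 7.16% of all probe sets tested. Their median change was 0.14, against 0.08 for all probe sets tested. Of the 2379 brightest probe sets tested 28.9% rose. The means of the 43 in vehicle livers ran from 42.4 to 2543, and their calls were not compared at like brightness. With quantile normalization 8 rose and 1 fell, against 12% of all probe sets that rose and 1195 of 11894 that fell. Pomp, the chaperone that completes the core, had signals of 2190, 2185, 2198, 2141 and 2153 in the RG3487 livers and 1686, 1783, 1853, 1863 and 1742 in the vehicle livers, without overlap (0.28 ± 0.04, adjusted p = 0.000976). Both probe sets of Rnf181, a ubiquitin ligase gene, rose (0.48 ± 0.08 and 0.33 ± 0.07). In the first, 1371373_at, the signals were 417, 521, 500, 410 and 460 in the RG3487 livers and 316, 312, 354, 338 and 306 in the vehicle livers. Ubqln1, a shuttle for ubiquitinated proteins, rose in 1387041_at, with 971, 885, 931, 997 and 1009 in the RG3487 livers and 787, 802, 670, 801 and 695 in the vehicle livers (0.35 ± 0.07, adjusted p = 0.00298). The other Ubqln1 probe set, 1388719_at, averaged 1207 ± 122 in RG3487 livers and 1087 ± 89 in vehicle livers and did not pass (0.15 ± 0.08).

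Nfe2l2 and Nfe2l1 encode the transcription factors named above. Nfe2l2 had 2215, 1929, 1984, 2076 and 1963 in the RG3487 livers, against 577, 664, 724, 554 and 795 in the vehicle livers, without overlap (1.61 ± 0.09, adjusted p = 2.50e-06). Nfe2l1 was dim, and 1373278_at had 105, 59, 83, 64 and 85 in the RG3487 livers and 80, 81, 83, 61 and 91 in the vehicle livers (-0.01 ± 0.13, adjusted p = 0.953). Its probe set 1390068_at averaged 50.4 ± 7.8 in RG3487 livers and 57.8 ± 8.8 in vehicle livers (-0.15 ± 0.11, adjusted p = 0.305), and a further one was too dim to test. Whether the changes of the 2 genes differ from each other was not tested. Neither was a link between either gene and the change of the proteasome genes, and the activity of the factors was not measured.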

How the data were processed

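RNA of 10 rat livers was measured on Affymetrix arrays. The authors deposited 1 signal intensity per probe set and array, as whole numbers on a linear scale; the submitters' processing notes name MAS5; the scaling target is not given in the sources used here. Labelling started from 1 ug of RNA. Symbols came from the platform annotation, and all 53 members matched RefSeq. The number of arrays limits the precision.

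Signals were taken as log2(signal + 16), which makes folds of dim genes smaller. Control probe sets and the dimmest 25% were left out. Groups were compared with limma 3.58.1 in R 4.3.3 (trend, two-sided, Benjamini-Hochberg adjustment); the code was tested on simulated data. Members and lists were chosen with earlier results of these data known. Each liver's value is given for the 2 smallest p of each role, all inducible subunits, activators and the inhibitor, the extremes, genes whose probe sets disagree, and the 4 smallest p of the partner list with Nfe2l1 and Nfe2l2. Alternatives were pseudocounts of 1 and 64, 3 scalings, other filters, eBayes without trend or robust, a replicate block and each array left out.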

Additional observations from a re-analysis of the deposited data

Results flagged for a closer look

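Single animals far from the others of their group were looked for in 108 groups of 5 with Dixon's ratio (critical value 0.71), and 4 were found, where chance flags about 1 in 20 groups. Psma4 had 890 in RG3487 rat 3, below 965 to 992 in the other RG3487 livers. Psmb3 had 1071 in the same rat, below 1195 to 1245. Psmb4 had 2326 in RG3487 rat 4, below 2525 to 2589. Psma6 had 2558 in vehicle rat 4, above 2434 to 2465 in the other vehicle livers.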

How the results depend on the processing

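The count of 36 higher proteasome probe sets became 22 with arrays centred on their median and lay between 26 and 36 when each array was left out in turn, with 0 lower in every setting run. Of the 36, 22 rose under all 20 alternatives and 25 in all 10 fits that left out 1 array. The other 11 belong to Psma1, Psma5, Psma7, Psmb1, Psmb4, Psmc6, Psmd1, Psmd7 (2 probe sets), Psme1 and Psmg4, and the cause was not tested. None of the 36 changed sign in the alternatives run. Psma6 and 1376069_at of Psmd11, which passed only with scaling to the hybridization controls, had changes down to -0.02 and -0.03 in other settings. The count over all probe sets was 3295 (2443 higher, 852 lower), 2491 to 3449 with 1 array left out, and 7037 with scaling to the hybridization controls. The share of higher calls was 74.1% as deposited, while centring gave 1359 higher and 1335 lower, quantile normalization 1425 and 1195, and the hybridization controls 6683 and 354. The 14 partner calls became 9 with quantile normalization (8 higher, 1 lower), 34 with scaling to the hybridization controls, and 11 to 15 with 1 array left out. The titles number the rats 1 to 5 in both groups and state no pairing. Deviations of same-numbered rats correlated weakly (-0.04 to 0.17). RG3487 rats 2 and 4 correlated most with the vehicle rat of the same number, and rats 1, 3 and 5 with another one. Whether the numbers stand for a pairing cannot be told from these values. With the replicate block 25 proteasome probe sets were higher, and Psmb10 over Psmb7 kept its difference of 0.20 with an exact p of 0.0625, the smallest that 5 pairs allow. With 1 array left out that difference was 0.18 to 0.23 (exact p 0.00794 to 0.0159), and Psmb8 over Psmb5 was 0.01 to 0.25. Signals near the dim end, as those of Nfe2l1, limit what could be detected.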
